A study of Mus musculus with 2 samples.

Results

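The genes described here are 10 immediate early genes, Fos, Jun, Junb, Atf3, Egr1, Nr4a1, Ier2, Zfp36, Dusp1 and Btg2, read in freshly sorted alveolar macrophages, which live in the air spaces of the lung and clear them of particles and surfactant. They were chosen by name, and for each gene the feature (an array probe set for 1 transcript cluster) with the highest mean signal was taken among features that carry a single gene symbol. All 10 were found, each with 1 feature, among 22180 named genes on the array. The series held 2 Affymetrix arrays, 1 per genotype, and the macrophages came from lungs of mice aged 8 to 10 weeks, were isolated by flow cytometry and went straight into Trizol. The control group was labelled Lysm-Cre, and the other group Lysm-Cre Ssu72fl/fl. Both carry Cre recombinase driven from the lysozyme 2 locus, which is active in myeloid cells, and the second group also has Ssu72 alleles that Cre can recombine. The Ssu72 protein is a phosphatase of the tail of RNA polymerase II, whose phosphates change as a gene is transcribed. The comparison addresses how transcripts of these macrophages differed where Cre met the floxed Ssu72 alleles. The number of mice behind an array was not stated in the labels. Each genotype had a single array, so no value has a replicate, no p-value or SD between animals is given, and precision is limited by that number.

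Immediate early genes are transcribed within minutes of a stimulus by transcription factors that are already present in the cell, such as the serum response factor SRF with its partners and CREB, once MAP kinases or cyclic AMP signalling switch these factors on. Their mRNAs are short-lived, and several of their products act back on the same pathways to end the response. In tissue macrophages they are known for being switched on by the enzymatic digestion and sorting that free cells from an organ, so their level in sorted cells is often read as a trace of isolation. Both arrays were made from sorted cells, so the part of isolation in these signals was not tested.

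Promoter sequences show which of the usual control elements lie close to the starts of these genes. RefSeq promoter windows of assembly GRCm38.p6 were at hand for 8 of the 10 genes, all but Egr1 and Ier2. The 250 bases before the start site were searched on both strands. The windows printed are those of Zfp36 and Atf3, the genes with the largest differences between the arrays, of Fos, the classic member of the group, and of Dusp1 and Btg2, which hold a full CREB element. Each runs 5′ to 3′ along the gene, and capitals mark the matches. They are the cyclic AMP response element TGACGTCA, its core TGACG, which the full element contains on both strands and which reads CGTCA from the other strand, the CArG box bound by SRF, and TATAAA.
Zfp36 (chr7:28379229-28379478, minus strand): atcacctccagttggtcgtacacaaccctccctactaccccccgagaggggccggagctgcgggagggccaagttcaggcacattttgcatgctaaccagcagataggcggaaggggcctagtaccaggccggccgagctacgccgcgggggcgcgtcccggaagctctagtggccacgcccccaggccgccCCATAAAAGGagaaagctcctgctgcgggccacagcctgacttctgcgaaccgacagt
Atf3 (chr1:191183334-191183583, minus strand): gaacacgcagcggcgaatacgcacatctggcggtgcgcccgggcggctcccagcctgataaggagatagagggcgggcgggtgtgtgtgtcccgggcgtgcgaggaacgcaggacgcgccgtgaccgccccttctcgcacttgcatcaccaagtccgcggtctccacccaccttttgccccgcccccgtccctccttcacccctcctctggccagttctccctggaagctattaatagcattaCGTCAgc
Fos (chr12:85473640-85473889, plus strand): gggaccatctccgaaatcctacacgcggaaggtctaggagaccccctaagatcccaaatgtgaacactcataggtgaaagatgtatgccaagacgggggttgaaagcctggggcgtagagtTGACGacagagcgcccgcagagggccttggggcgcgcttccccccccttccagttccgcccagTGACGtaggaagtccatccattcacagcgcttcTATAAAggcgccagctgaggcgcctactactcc
Dusp1 (chr17:26508473-26508722, minus strand): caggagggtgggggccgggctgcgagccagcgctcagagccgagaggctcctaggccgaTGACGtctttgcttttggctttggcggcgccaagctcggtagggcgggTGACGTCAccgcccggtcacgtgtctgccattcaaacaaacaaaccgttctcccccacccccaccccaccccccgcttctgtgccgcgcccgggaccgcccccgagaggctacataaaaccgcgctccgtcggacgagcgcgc
Btg2 (chr1:134079156-134079405, minus strand): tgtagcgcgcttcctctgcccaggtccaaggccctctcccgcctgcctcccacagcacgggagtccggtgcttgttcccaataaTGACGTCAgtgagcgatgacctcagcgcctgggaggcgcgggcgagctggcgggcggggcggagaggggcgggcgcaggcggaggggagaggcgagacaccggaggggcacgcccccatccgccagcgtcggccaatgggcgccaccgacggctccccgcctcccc
The full element TGACGTCA was found in 2 of the 8 windows, and in 1.55% of all 32851 windows of the same length. The core TGACG was found in 6 of the 8, against 17.8% of all windows. The CArG box was found in 1 window, that of Zfp36, 58 to 49 bases before the start, against 1.47% of all windows. TATAAA was found in 1, that of Fos, against 12.4%, and the AP-1 site TGACTCA in 0 of the 8, against 4.46%. The windows of these genes were rich in G and C, with a median of 65.8% against 52.4% for all windows. A match of letters describes these windows and shows no binding in these cells. Bases farther than 250 from the start were not searched. A window without a match therefore does not show that the gene lacks the element.

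The arrays carried the profile of alveolar macrophages, but the targeted gene did not check the label. Of 11 alveolar macrophage markers found on the array, 9 had a mean signal above the 95th percentile of named genes, led by the chitinase-like gene Chil3 (9.42 on the control array and 9.30 on the Ssu72fl/fl array) and Plet1 (8.68 and 8.38). The exceptions were Siglecf (5.18 and 5.09), a defining surface lectin of these cells, and Fabp4, a carrier of fatty acids (5.06 and 5.24). The median difference of the 11 was -0.30 (-0.055 once the median difference of genes of like signal was subtracted). Ssu72 itself had a control signal of 4.86 and a signal of 4.998 on the other array, near the floor of 4.65, the median of all values, and the labels do not say where its probes lie relative to the deleted part. Every direction below therefore rests on the label alone. All signals are deposited log2 values, and every difference is Lysm-Cre Ssu72fl/fl minus Lysm-Cre. In bulk samples such as these, fewer cells of a type and less RNA per cell cannot be told apart.

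All 10 immediate early genes had signals far above the floor on both arrays, and most stood among the brightest genes measured. Atf3, a stress-induced transcription factor of the CREB/ATF family that restrains inflammatory genes in macrophages, read 8.43 in control and 7.72 in Ssu72fl/fl macrophages, ranks 98 and 119 of 22180. Zfp36, which encodes tristetraprolin, a protein that binds AU-rich mRNAs such as that of Tnf and brings about their decay, read 8.36 and 7.51, ranks 105 and 141. Junb, an AP-1 subunit, read 7.93 and 7.78, ranks 142 and 111. These 3 genes all lay above the 99th percentile of named genes. Dusp1, a phosphatase that switches off MAP kinases, read 8.02 and 7.58, ranks 132 and 133. Fos, the partner of Jun proteins in AP-1, read 7.68 and 7.48, ranks 166 and 146. With Dusp1 and Fos, 5 of the 10 genes lay above the 99th percentile on each array.

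The other 5 members had lower signals. Nr4a1, the orphan nuclear receptor Nur77, read 7.20 and 6.72, ranks 262 and 307. Btg2, an antiproliferative protein that recruits the deadenylase complex to mRNAs, read 7.20 and 6.74, ranks 264 and 302. Jun, the AP-1 subunit that pairs with Fos, read 6.50 and 5.94, ranks 489 and 837. Jun moved the most places down of the 10 genes. Egr1, a zinc finger transcription factor, read 5.83 and 5.88, ranks 1219 and 924. Ier2, a nuclear protein of the immediate early response, read 5.83 and 5.78, ranks 1208 and 1110. Egr1 and Ier2 were thus the dimmest of the 10 on both arrays, at percentiles between 94.5 and 95.8 of named genes. These are ranks of array signal and not of transcript number, because probe sets differ in how strongly they respond.

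**Figure D1:**
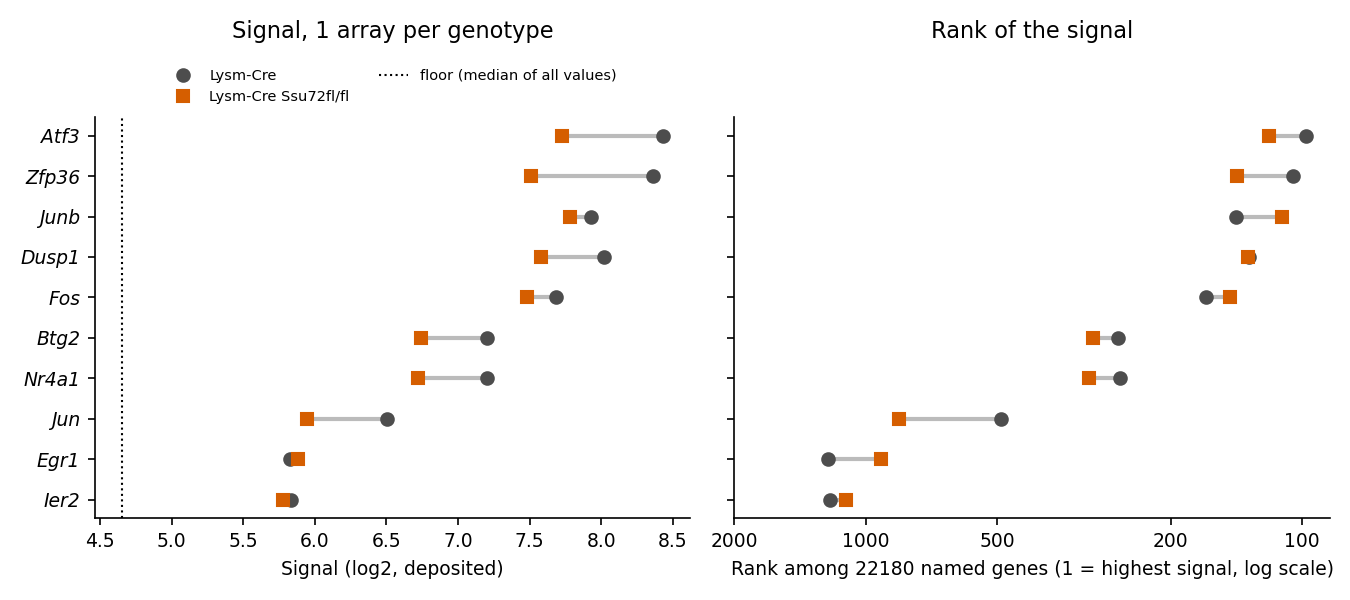
Left, log2 signal of the 10 immediate early genes (rows, ordered by mean signal) on the Lysm-Cre array (grey circles) and the Lysm-Cre Ssu72fl/fl array (orange squares), with the floor of 4.65 as a dotted line; right, the rank of each signal among 22180 named genes on a log axis. The orange square lies to the left of the grey circle for 9 genes on the signal axis and for 6 on the rank axis; there is 1 array per genotype, so there are no error bars.

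On the deposited scale, 9 of the 10 genes read lower on the Ssu72fl/fl array and 1 higher. The median difference was -0.45, a control signal 1.36-fold above the other, against a median of -0.0068 over all 13015 named genes that could be compared, of which 51.9% were lower. At least 1.5-fold lower were 2 of the 10, Zfp36 and Atf3, against 1.37% of all compared genes; none was 1.5-fold higher (0.315% of all) and none 2-fold lower (0.0845% of all) or 2-fold higher (0.0307% of all). The bright genes of this array pair as a whole read lower, however. Among the 1031 other named genes with a mean signal in the range of the 10 (5.81 to 8.08), 73.1% were lower, the median difference was -0.21 with quartiles of -0.41 and 0.016, and 11.3% were at least 1.5-fold lower. The shift deepened with signal. At levels 5 to 6 the median was -0.031 (4463 genes, 56.5% lower), and at 6 to 7 it was -0.19 (590 genes, 71.0% lower). At 7 to 8 the median was -0.42 (153 genes, 88.2% lower), and at 8 to 9 it was -0.49 (59 genes, 94.9% lower). The mean signals of Zfp36 and Atf3 were 7.93 and 8.08. Other genes of the same brightness therefore shared lower readings, and the cause was not tested.

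To read each gene against others of its brightness, the median difference of the 200 compared genes nearest in mean signal was subtracted, which gives a level-adjusted difference, and the robust SD of those 200 differences (the scaled median absolute deviation) is called the spread at that level. The spread is scatter between genes and not an error between animals. On this scale the 10 genes divided, with 6 lower and 4 higher and a median of -0.049, where 49.8% of all compared genes were lower. A level-adjusted difference beyond the spread was found for 2 of the 10, Zfp36 and Jun, against 31.7% of the 1031 genes in the same range of signal, so the number is no more than other genes gave. Above a level of about 7 few genes were left, and the 200 nearest to Atf3 ran from 7.05 to 9.10.

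**Figure D2:**
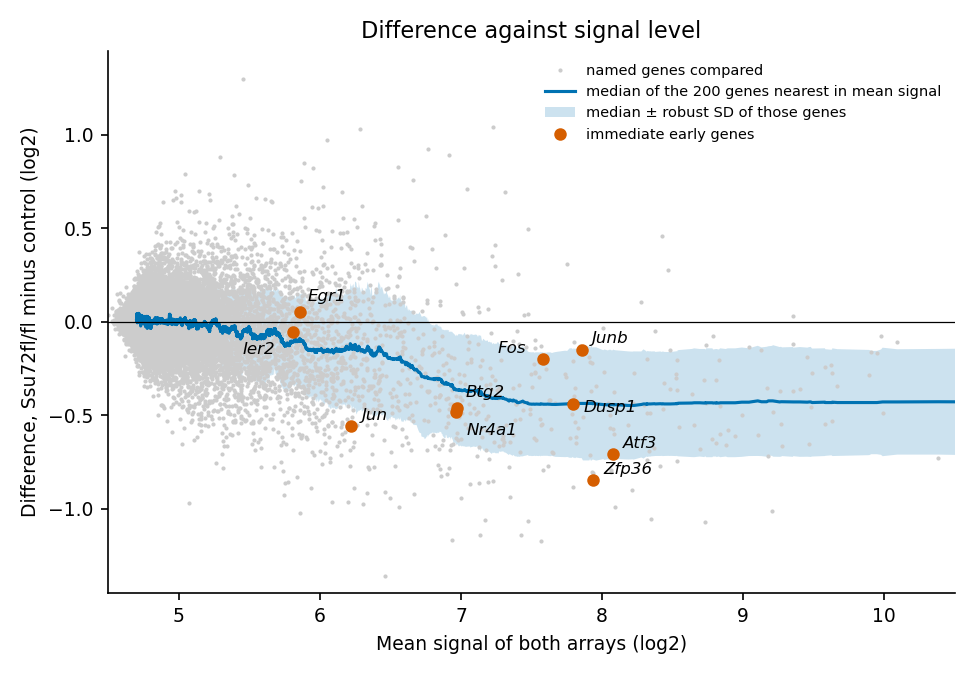
Difference (Ssu72fl/fl minus control, log2) against the mean signal of both arrays (log2) for the compared named genes (grey points), with the median of the 200 genes nearest in signal (blue line), plus or minus their robust SD (shaded), and the 10 immediate early genes (orange); 25 genes lie outside the axes. Zfp36 and Jun lie below the shaded band, Fos, Junb, Egr1 and Ier2 above the blue line, and Dusp1 on it.

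Among the transcription factors, the AP-1 genes did not move as a unit. The differences of the 4 AP-1 and ATF genes ran from -0.71 for Atf3 to -0.15 for Junb. Jun, at -0.56 (1.47-fold lower), stayed low when level-adjusted, at -0.43 against a spread of 0.32. Atf3, at -0.71 (1.63-fold lower), was at -0.26 when level-adjusted, inside its spread of 0.29. Fos and Junb took the opposite side once brightness was allowed for. The difference of Fos was -0.20 as deposited and 0.24 when level-adjusted (spread 0.28), and that of Junb -0.15 and 0.29 (spread 0.29). Neither exceeded its spread on either scale. Nr4a1 was at -0.48 as deposited and -0.12 when level-adjusted (spread 0.29), so most of its lower reading was shared by genes of like signal. Egr1, the gene that read higher as deposited, was at 0.053 and 0.15, within its spread of 0.25, and Ier2 at -0.052 and 0.054, within 0.23.

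The 3 genes whose products damp the response all read lower on the deposited scale, between -0.85 and -0.44. Level-adjusted, Zfp36 lay beyond its spread and Dusp1 and Btg2 within theirs. Zfp36 had the largest difference of the 10, -0.85 (1.80-fold lower), and was at -0.41 when level-adjusted, beyond its spread of 0.30. Dusp1 was at -0.44 as deposited and -0.0040 when level-adjusted, the middle of genes of its signal (spread 0.29). Btg2 was at -0.46 as deposited and -0.094 when level-adjusted (spread 0.30). Dusp1 and Btg2 thus lay close to the middle of the group on both scales. A link to the full TGACGTCA element in their windows was not tested.

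Across scalings the same genes made up the lowest, middle and highest groups, but places within the lowest and highest groups changed, as did some signs. The scalings rework the same pair of arrays, so they are no independent check. As deposited, after quantile normalization (which gives both arrays the same distribution) and when level-adjusted, the 3 lowest were Zfp36, Atf3 and Jun, and the 4 highest were Fos, Junb, Egr1 and Ier2. Nr4a1, Btg2 and Dusp1 took the places between in each of them. Fos, Junb and Ier2 read lower as deposited and higher on the other 2 scales, where 6 of the 10 were lower; 48.2% of all compared genes were lower after quantile normalization. After quantile normalization Zfp36 was at -0.38, Jun at -0.33, Atf3 at -0.27, Fos at 0.23 and Junb at 0.28.

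**Figure D3:**
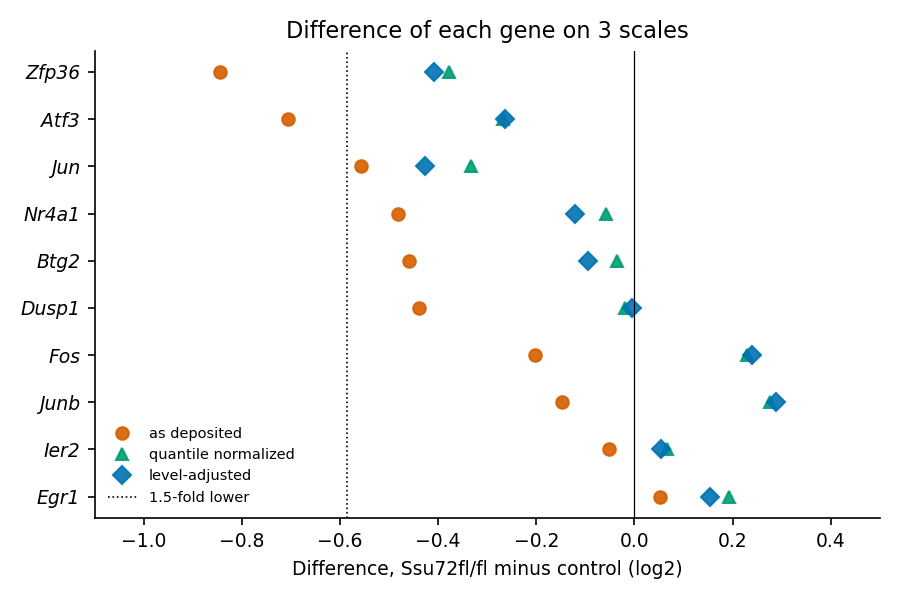
Difference of each gene (Ssu72fl/fl minus control, log2) as deposited (orange circles), after quantile normalization (green triangles) and level-adjusted (blue diamonds); the dotted line marks 1.5-fold lower. As deposited, 9 genes lie left of 0 and 2 past the dotted line; on the other scales Fos, Junb, Ier2 and Egr1 lie right of 0 and none passes the line.

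The brightest members also changed order. The 5 genes with mean signals from 7.58 to 8.08 spanned 0.75 on the control array, in the order Atf3, Zfp36, Dusp1, Junb, Fos. On the Ssu72fl/fl array they spanned 0.30, in the order Junb, Atf3, Dusp1, Zfp36, Fos. Junb minus Zfp36 was -0.43 on the control array and 0.27 on the other. The gap between the differences of the pair was 0.70 as deposited and 0.65 after quantile normalization. Level adjustment cannot move it, since the same median was subtracted from both genes. The pair was picked after the values were seen, and with 1 array per genotype the change of order was not tested.

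Other genes of the same families ranged from bright to below the floor. Of 22 other AP-1 and basic leucine zipper genes found on the array, 7 had a mean signal above the 95th percentile and 1, Crem, was below the floor on both arrays. Among 21 other AP-1 and basic leucine zipper genes, 14 read lower and 7 higher; their median was -0.093 (level-adjusted -0.00052, 11 lower and 10 higher), and 0 were 1.5-fold different. Fosb, the close relative of Fos, read 6.68 and 6.64 (-0.041, level-adjusted 0.21), and Jund, the constitutive Jun protein, 6.18 and 6.08 (-0.10, level-adjusted 0.046). When level-adjusted both were above 0, as Fos and Junb were, but inside their spreads of 0.30 and 0.31. As deposited both read lower, as Fos, Junb and Jun all did. Lowest were Cebpa (-0.47), a myeloid factor, Ddit3 (-0.38), of the unfolded protein response, and Nfe2l2 (-0.35), of the antioxidant response. Among those above the floor on both arrays, the highest were Atf5 (0.084), Atf2 (0.050) and Maff (0.047).

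The other inducible transcription factors were also divided. Among 27 of them, 16 read lower and 11 higher; the median was -0.11 (level-adjusted -0.036, 15 lower and 12 higher). Egr2, a relative of Egr1, read 6.43 and 6.05 (-0.38, level-adjusted -0.24, spread 0.32), whereas Egr4, near the floor on the control array, read 4.81 and 5.13 (0.32). As deposited the Egr genes therefore differed in direction among themselves. When level-adjusted, Egr1 and Egr2 lay within their spreads, and Egr4 lay beyond its own (0.31, spread 0.16). Klf6 read 7.16 and 6.76 (-0.40, level-adjusted -0.036), Klf4 6.08 and 5.70 (-0.38) and Klf2 5.54 and 5.67 (0.13). Nr4a2, a relative of Nr4a1, was near the floor at 4.89 and 4.78, and Nr4a3, the other relative, was bright at 6.54 and 6.19 (-0.35, level-adjusted -0.20). Myc read 5.38 and 5.28. Skil (-0.54) and the NF-kappaB subunit gene Rel (-0.51) were the lowest, and Klf9 (0.38) and Hes1 (0.31) were, with Egr4, the highest. Hes1 was near the floor on the control array, at 4.71.

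Feedback inhibitors and mRNA decay factors read mostly lower as deposited. Among 39 of them, 29 read lower and 10 higher. Of all compared genes 51.9% were lower, and of those in the signal range of the 10 members 73.1%. The list was dimmer than the members, with a median control signal of 5.76 over the 41 genes found. Of all compared genes at levels 5 to 6, 56.5% were lower. The median of the list was -0.14 (level-adjusted -0.058, 23 lower and 16 higher). The list held 1 gene that was at least 1.5-fold lower, as were 1.37% of all compared genes. It was the stress sensor gene Gadd45b, at 6.95 and 6.30 (-0.65, level-adjusted -0.42, spread 0.30). Gadd45g, of the same family, read 6.64 and 6.69 (0.051). Mcl1 (-0.54), a survival factor, and Btg1 (-0.53, level-adjusted -0.44), the paralogue of Btg2, completed the lower end, and Dusp2 (0.21) and Socs1 (0.15), inhibitors of MAP kinase and cytokine signalling, the upper end. Ier3 read 6.18 and 6.20 (0.019) and Ier5 6.72 and 6.50 (-0.22, level-adjusted 0.013).

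The kinases and factors that switch the genes on showed no common shift, although 8 of the 32 genes listed had no feature with a single symbol. Among the 20 compared, 9 read lower and 11 higher; the median was 0.0048 (level-adjusted 0.028). Srf, which encodes the factor that binds the CArG box, was the highest, at 5.51 and 5.76 (0.25, level-adjusted 0.32, spread 0.25), followed by Rps6ka3 (0.21) and Map2k3 (0.18). Mapkapk2 (-0.37), whose kinase acts on tristetraprolin, Crebbp (-0.34), a coactivator of CREB, and Mapkapk3 (-0.23) were the lowest.

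Cytokine and chemokine genes of the first wave of macrophage activation read mostly lower. Among 20 of them, 16 read lower and 4 higher, where 51.9% of all compared genes and 73.1% of those in the members' signal range were lower. The list was dimmer than the members, with a median control signal of 5.16 over the 27 genes found. Of all compared genes at levels 5 to 6, 56.5% were lower. The median of the list was -0.11 (level-adjusted -0.044, 15 lower). Il1b read 8.56 and 8.08 (-0.49, level-adjusted -0.048), rank 91 by mean signal, where Atf3 had rank 104. Tnf, whose mRNA tristetraprolin destabilises, read 5.90 and 5.76 (-0.14, level-adjusted -0.040, spread 0.24), and Cxcl2 6.58 and 6.26 (-0.32, level-adjusted -0.19). The chemokine genes Ccl3 (-1.17, level-adjusted -0.73) and Ccl4 (-0.89, level-adjusted -0.76) were at least 1.5-fold lower, as were 1.37% of all compared genes. Osm (0.30), Icam1 (0.16) and Cxcl1 (0.074) were the highest.

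Some heat shock genes, of the other group known from cell dissociation, reached similar brightness, but the list as a whole was dimmer. Of its 16 genes found on the array, 7 had a mean signal above the 95th percentile, against 9 of the 10 immediate early genes. Its median control signal was 5.65, against 7.44 for the 10. Hspa8, a constitutive chaperone, read 8.93 and 8.73, rank 61 by mean signal, and Hspa1a, the inducible one, 8.10 and 7.73, rank 119, next to Zfp36 at rank 115 and Junb at 124. Hspa1a has a near-identical copy, Hspa1b, so its signal cannot be assigned to 1 gene with certainty. The feature of Hspa1b read 8.56 and 8.41 (-0.15, level-adjusted 0.29), a smaller difference than that of Hspa1a as deposited. Of 15 heat shock genes compared, 10 were lower and 5 higher as deposited (median -0.15), but 5 were lower and 10 higher when level-adjusted (median 0.062), so their direction as a group turned with the scaling. Hspa5 (-0.50), Hspa1a (-0.37) and Hspa9 (-0.32) were the lowest, and Hspb1 (0.40), Bag3 (0.15) and Hspe1 (0.090) the highest.

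**Figure D4:**
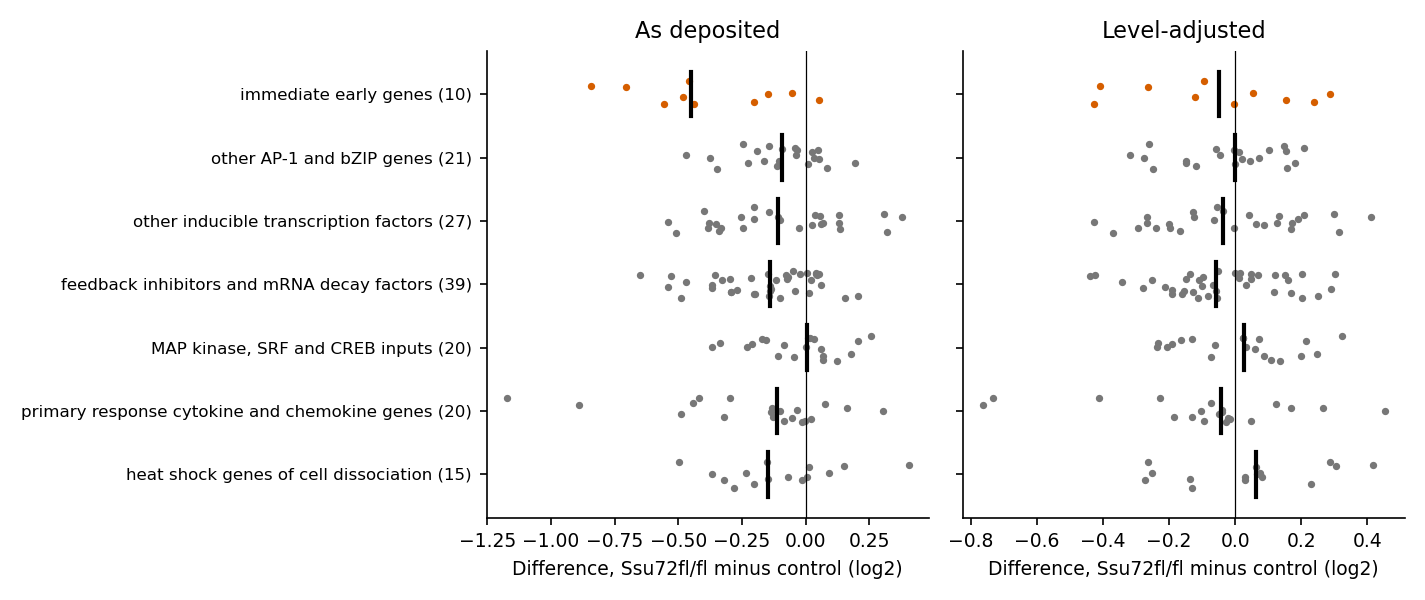
Difference (Ssu72fl/fl minus control, log2) of the compared genes of 7 lists, the number compared in brackets, as deposited (left) and level-adjusted (right); each point is a gene and black bars are medians. As deposited, the 10 immediate early genes (orange) have the lowest median, -0.45; level-adjusted, their median is -0.049 and the medians of all lists lie between -0.058 and 0.062.

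Immediate early genes are expressed in many cell types, so markers of other cells that a lung sort could hold are given beside them. Of all compared genes, 51.9% were lower. Monocyte markers were lower in 8 of 9 compared genes (median -0.29, level-adjusted -0.28), led in signal by Cx3cr1 (6.49 and 5.86) and Treml4 (5.52 and 5.29). Interstitial macrophage markers were lower in 8 of 9 (median -0.31, level-adjusted -0.28), led by Mrc1 (7.40 and 7.09), with Cx3cr1 next. Mrc1 itself was at 0.098 when level-adjusted (spread 0.29). Lower too were 10 of 11 alveolar macrophage and 5 of 5 dendritic cell markers. The counts were 7 of 9 for endothelial, 5 of 7 for fibroblast and smooth muscle and 6 of 9 for neutrophil markers. T and NK cell and B cell markers went the other way, with 2 of 5 and 3 of 7 lower. Summed on the linear scale, the 10 monocyte markers found gave 397 on the control array and 319 on the other, and the 9 interstitial markers 567 and 447. The 11 alveolar macrophage markers gave 2041 and 1721, and the 10 type 2 cell markers 833 and 691. The sum of the T and NK cell markers rose, from 239 to 250. Background signal is part of every sum, since dim markers were counted too. The monocyte list shares Cx3cr1 and Ccr2 with the interstitial list. The part of monocytes and interstitial macrophages in the lower readings of Zfp36, Atf3 and Jun was not tested. Neutrophil markers were near the floor, with none of 12 above the 95th percentile, Csf3r (5.18 and 5.04) and Ngp (5.09 and 5.001) brightest, and Cxcr2, Ly6g and Camp below the floor on both arrays. None of 10 endothelial markers (Cdh5 5.66 and 5.18, Ramp2 5.11 and 5.49) and none of 10 fibroblast and smooth muscle markers (Acta2 5.49 and 5.76, Col1a1 5.77 and 5.42) passed the 95th percentile. Alveolar type 2 cell markers included Sftpc at 8.71 and 8.35 and Sftpb at 6.25 and 5.93, and 8 of their 10 were lower (median -0.17, level-adjusted -0.10). Of the dendritic cell markers, Cd209a (8.97 and 8.65) was bright and Ccr7 (5.53 and 5.43) was not, and Xcr1, Zbtb46 and Itgae were below the floor on both arrays. T and NK cell markers (Nkg7 5.26 and 5.35, Cd8a 4.92 and 4.91) were dim, with 4 of 9 below the floor on both arrays, and of the B cell markers Ighm (7.46 and 6.88) was bright and Pax5 (5.04 and 5.09) was not.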

How the data were processed

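Biotinylated cRNA from 6 ug of total RNA was hybridised to 1 array per genotype, per the labels' protocols. The authors deposited 1 log2 value per feature, already processed: the values run from 4.23 to 13.5 and were taken as log2 from that range. MAS5 appears in the submitters' processing notes, its role unstated; no background correction, normalization or genome build is given in the sources read. Scanner files were not used here. Of 33793 features, 23521 carried 1 gene symbol in the platform annotation, 1814 several and 8458 none; 23328 were matched through the Entrez identifier to RefSeq (GRCm38.p6). The floor was the 50th percentile of the values of both arrays together. Lower values were raised to it, and genes at the floor on both arrays were left out, so some list genes have only a bound; the 10 members were above it on both arrays. Calls were set at 1.5-fold, with no test. The members and lists were chosen with earlier results of these data known. The genes named were all 10 members and 16 listed genes whatever their values. Also named were the 3 lowest and 3 highest of each list above the floor on both arrays, the 2 brightest markers of each cell type, and Ssu72. Nr4a3, Crem, Hspa1b, Siglecf, Fabp4 and markers below the floor on both arrays were named after their values were seen. Alternatives were median centring, quantile normalization, level adjustment, the mean of a gene's features, floors at the 25th and 75th percentiles, no floor and a 2-fold threshold. Calculations used Python 3.11.15, numpy 2.4.6 and pandas 2.3.3.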

Additional observations from a re-analysis of the deposited data

How the results depend on the processing

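The scaling between the arrays decided the sign of several genes. After quantile normalization the median difference of the 10 genes was -0.027, 6 of 10 were lower and 0 were at least 1.5-fold lower; Fos was at 0.23, Junb at 0.28 and Ier2 at 0.066, all above 0 where the deposited values were below it. Level-adjusted, the median was -0.049, 6 were lower and 0 were 1.5-fold lower, with Fos at 0.24, Junb at 0.29 and Ier2 at 0.054. Both scalings remove a shift that bright genes share. At 2-fold, 0 of 10 were lower. Over all 13015 compared genes the calls at 1.5-fold turned with the scaling as well, from 178 lower and 41 higher (81.3% lower) as deposited to 43 and 98 (30.5%) after quantile normalization and 47 and 76 (38.2%) when level-adjusted. Median centring, which moves all genes alike, left the 10 genes on the same side of 0 and the same 2 genes past 1.5-fold. The mean of a gene's features, the other floors and no floor could not change a member's difference, since each of the 10 has 1 feature and all lie above the highest floor tried. The level adjustment has no rank, so the rank was not recomputed under it; the median rank percentile moved by less than 1 point under the alternatives that give one. No paired analysis was possible because each genotype had 1 array and the labels carry no replicate numbers. Signal over background did not limit the members, but the number of arrays did: no difference here has a replicate.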
